A study of Mus musculus with 12 samples.

Results

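Integrins and laminins are the receptors and the basement membrane ligands through which fibroblasts hold on to extracellular matrix, and 35 of their genes were followed here in mouse embryonic fibroblasts (MEFs) after DNA damage. The 35 are the listed genes whose symbols name an integrin α subunit (16), an integrin β subunit (8) or a laminin chain (11), out of 16425 genes in all. Symbols of proteins that bind integrins (3) were dropped, and Itgax, Itgae and Itgb2l were not analysed here. The MEFs were wild type, had been infected with a guide RNA, and spent 24 h in the DNA-damaging drug doxorubicin at 0.5 µM before RNA was taken. In the sgPVT1 group (labelled sg10) the guide targeted the site in Pvt1 that p53 binds, and in the sgTom group it was a non-targeting control, with 3 replicates per group. All 6 libraries thus carried a guide and the drug. The other 6 libraries of the series, from untreated MEFs, were not analysed here, so no value below is an effect of doxorubicin. Whether the infected cells were pools or clones, and whether replicates came from separate embryos or cultures, is not given in the sources used here, so p-values measure the spread between these libraries.

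An integrin is a pair of an α and a β subunit that spans the membrane, binds matrix outside the cell and joins it to actin through talin and other adaptors inside. A laminin is a trimer of an α, a β and a γ chain that is laid down in basement membranes and bound by a subset of integrins and by dystroglycan. Fibroblasts are known for fibronectin and collagen receptors, while some family members are known mainly from epithelium, muscle, leukocytes or platelets.

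Reads in genes ran between 50091418 and 66132317 per library. Pvt1, the targeted gene, stood at 8.04, 5.93 and 5.40 CPM (reads per gene scaled for library size, as the authors deposited them) in sgPVT1 libraries, against 16.4, 11.7 and 12.1 CPM in sgTom libraries, with no overlap. The labels of the 6 libraries thus go with the level of the targeted gene. Equal replicate numbers paired the libraries (methods below), and the pair numbered 1 stood apart from the other 4 libraries. Summed fibroblast markers were 17221 to 19996 CPM per library, endothelial ones 56.2 to 78.0 CPM, neural and glial ones 203 to 262 CPM, and the 1 listed lymphocyte marker 0.197 to 0.801 CPM.

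Start regions from RefSeq (assembly GRCm38.p6, 250 bases before to 50 after an annotated start) were held for 22 of the 35 genes, in 25 windows. The next 4 are shown, 5′ to 3′ on the gene's strand, for the laminin chain with the smallest p between guides in the blocked fit (Lama5), for the member whose replicate means lay furthest apart (Lamb3), and for the 2 windows with a motif searched for here (Itga9 and 1 of 2 Itga3 windows). Capitals mark motif matches.
Lama5 (chr2:180225810-180226109, minus strand): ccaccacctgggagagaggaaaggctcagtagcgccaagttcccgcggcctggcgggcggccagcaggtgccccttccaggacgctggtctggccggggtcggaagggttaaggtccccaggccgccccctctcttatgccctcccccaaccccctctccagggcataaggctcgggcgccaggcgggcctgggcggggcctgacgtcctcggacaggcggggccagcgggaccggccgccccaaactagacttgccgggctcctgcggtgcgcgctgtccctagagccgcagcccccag
Lamb3 (chr1:193301744-193302043, plus strand): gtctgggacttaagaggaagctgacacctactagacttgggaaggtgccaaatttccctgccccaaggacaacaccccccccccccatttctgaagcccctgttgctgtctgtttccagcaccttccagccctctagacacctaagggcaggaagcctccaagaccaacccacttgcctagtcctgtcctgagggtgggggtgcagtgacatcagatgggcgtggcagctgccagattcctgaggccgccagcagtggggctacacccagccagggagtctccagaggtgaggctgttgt
Itga9 (chr9:118711442-118711741, plus strand): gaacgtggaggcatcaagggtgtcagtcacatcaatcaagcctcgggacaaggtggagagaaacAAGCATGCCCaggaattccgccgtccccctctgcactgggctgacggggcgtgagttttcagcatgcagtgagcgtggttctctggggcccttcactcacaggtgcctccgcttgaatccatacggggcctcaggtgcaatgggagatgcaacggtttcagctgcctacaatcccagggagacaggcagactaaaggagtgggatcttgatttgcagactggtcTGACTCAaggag
Itga3 (chr11:95069149-95069448, minus strand): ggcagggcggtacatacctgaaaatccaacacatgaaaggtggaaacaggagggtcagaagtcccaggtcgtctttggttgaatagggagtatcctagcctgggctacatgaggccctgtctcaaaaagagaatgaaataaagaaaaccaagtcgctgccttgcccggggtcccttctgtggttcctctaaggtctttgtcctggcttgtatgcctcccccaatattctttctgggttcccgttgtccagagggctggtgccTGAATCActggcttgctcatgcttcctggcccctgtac
The Lamb3, Itga9 and Itga3 windows lie inside the genes as GENCODE M21 draws them (Lamb3 from 193207699 to 193343878 on chromosome 1, Itga9 from 118606690 to 118901003 on chromosome 9, Itga3 from 95044474 to 95076801 on chromosome 11). The AP-1 motif TGANTCA, searched on both strands, was in 2 of the 25 windows, those of Itga9 and Itga3, and in 7.81% of all 32851 windows of the same length. The E-box CACGTG was in 0 of 25 and in 7.15% of all. The p53 decamer, known as the p53 half-site, was in 1 of 25, the Itga9 window, and in 8.36% of all. A match is a description of the letters only.

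Integrin β1 was by far the most abundant member, and the α subunits that stood highest were those of the fibronectin, laminin and vitronectin receptors. The leukocyte α subunits were the lowest of the α subunits on average, though not in every library. Levels are compared between genes per kilobase of exon (GENCODE M21, mm10), since longer transcripts give more reads. Of the 35 genes, 9 were above 100 CPM on average and 3 were below 1 CPM.

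Itgb1 (chromosome 8, 128685654 to 128733200), which encodes the β1 subunit shared by most integrins of fibroblasts, had 2159, 2425 and 2549 CPM in sgPVT1 libraries, against 2092, 2647 and 2699 CPM in sgTom libraries. The groups overlapped, and the lowest library of each group was replicate 1. Per kilobase, the level of Itgb1 was 583 ± 48.9 CPM in sgPVT1 and 608 ± 82.4 CPM in sgTom libraries (SD, n = 3 each), and over all 6 libraries it was 4.76 times that of Itgb5. Itgb5, which pairs with αv to bind vitronectin, had 391, 448 and 464 CPM in sgPVT1 libraries, against 440, 449 and 474 CPM in sgTom libraries. Itgb1 made up 81.3% ± 0.278 of the summed per-kilobase level of the 8 β subunits in sgPVT1 and 81.2% ± 1.44 in sgTom libraries (SD, n = 3 each). The other β subunits were far lower, from Itgb4 at 6.22 ± 2.80 against 6.47 ± 3.14 CPM per kilobase in sgPVT1 and sgTom libraries down to Itgb6 at 0.0790 ± 0.0262 against 0.0904 ± 0.0658 (SD, n = 3 each).

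Among α subunits that bind the RGD motif, Itga5, the fibronectin receptor subunit, had 152, 226 and 225 CPM in sgPVT1 libraries, against 146, 218 and 231 CPM in sgTom libraries. Itgav had 259, 293 and 315 CPM in sgPVT1 libraries, against 260, 317 and 336 CPM in sgTom libraries. In both genes replicate 1 was the lowest library of each group, and the groups overlapped. Per kilobase, Itga5 stood at 40.7 ± 8.63 and 40.2 ± 9.35 CPM and Itgav at 26.9 ± 2.62 and 28.3 ± 3.69 CPM in sgPVT1 and sgTom libraries (SD, n = 3 each). Itga8, the nephronectin receptor subunit, was lower, at 5.99 ± 0.750 and 6.43 ± 0.363 CPM per kilobase in sgPVT1 and sgTom libraries (SD, n = 3 each).

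Among laminin-binding α subunits, Itga6 had 349, 225 and 303 CPM in sgPVT1 libraries, against 329, 288 and 304 CPM in sgTom libraries. Its lowest library in each group was replicate 2 and its highest was replicate 1. Per kilobase, Itga6 stood at 32.4 ± 6.94 and 34.0 ± 2.30 CPM, Itga3 at 11.0 ± 3.56 and 11.5 ± 3.18 CPM, and Itga7, a subunit known from muscle, at 6.38 ± 1.75 and 6.80 ± 2.56 CPM in sgPVT1 and sgTom libraries (SD, n = 3 each). Per kilobase, Itga6 was above Itga3 and Itga3 above Itga7 in every library.

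The collagen receptor subunits were led by Itga11, which is known from fibroblasts, with 46.4, 34.0 and 37.6 CPM in sgPVT1 libraries, against 41.5, 33.5 and 43.9 CPM in sgTom libraries. Itga1 had 28.3, 30.2 and 33.6 CPM in sgPVT1 libraries, against 25.8, 34.5 and 34.7 CPM in sgTom libraries. Per kilobase, Itga11 stood at 7.66 ± 1.24 and 7.72 ± 1.05 CPM, and Itga1 at 1.65 ± 0.145 and 1.70 ± 0.275 CPM, in sgPVT1 and sgTom libraries (SD, n = 3 each). Itga2 and Itga10 averaged below Itga1 per kilobase. In GENCODE M21, Itga10 shares 33.5% of its exon bases with Gm42957 on the same strand, so Itga10 reads may be split or ambiguous. Gm42957 is not among the listed genes. Among the leukocyte α subunits, Itgad, with 0.468, 0.233 and 0.261 CPM in sgPVT1 libraries and 0.710, 0.392 and 0.370 CPM in sgTom libraries, was the 1 member that did not pass the filter for testing.

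Per kilobase, the β chains Lamb2 and Lamb1 were the most abundant laminin genes, followed by Lamc1 and Lama5 at similar levels. Of the summed per-kilobase laminin level, Lama5 held 14.7% ± 1.22 and Lamc1 14.3% ± 1.12 in sgPVT1 libraries (SD, n = 3). In sgTom libraries Lama5 held 13.5% ± 0.813 and Lamc1 14.2% ± 1.75 (SD, n = 3). Lamb2 had 678, 386 and 426 CPM in sgPVT1 libraries, against 694, 396 and 434 CPM in sgTom libraries. Lamb1 had 488, 554 and 572 CPM in sgPVT1 libraries, against 491, 560 and 551 CPM in sgTom libraries. Replicate 1 was the highest library of each group for Lamb2 and the lowest for Lamb1. Per kilobase, Lamb2 led in all 6 libraries, with 52.7% to 69.5% of the summed β chain level. Lamc1 had 262, 237 and 268 CPM in sgPVT1 libraries, against 239, 246 and 266 CPM in sgTom libraries, and held 88.9% ± 2.09 and 88.8% ± 3.01 of the per-kilobase γ chain level in sgPVT1 and sgTom libraries (SD, n = 3 each). Among α chains, Lama5 held 72.1% ± 8.10 and 70.2% ± 8.32, and Lama4, known from vessels and fibroblasts, 14.9% ± 3.52 and 15.8% ± 2.14 of the per-kilobase α chain level in sgPVT1 and sgTom libraries (SD, n = 3 each). Lama4 had 67.7, 88.9 and 77.1 CPM in sgPVT1 libraries, against 67.0, 84.3 and 84.6 CPM in sgTom libraries.

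**Figure D1:**
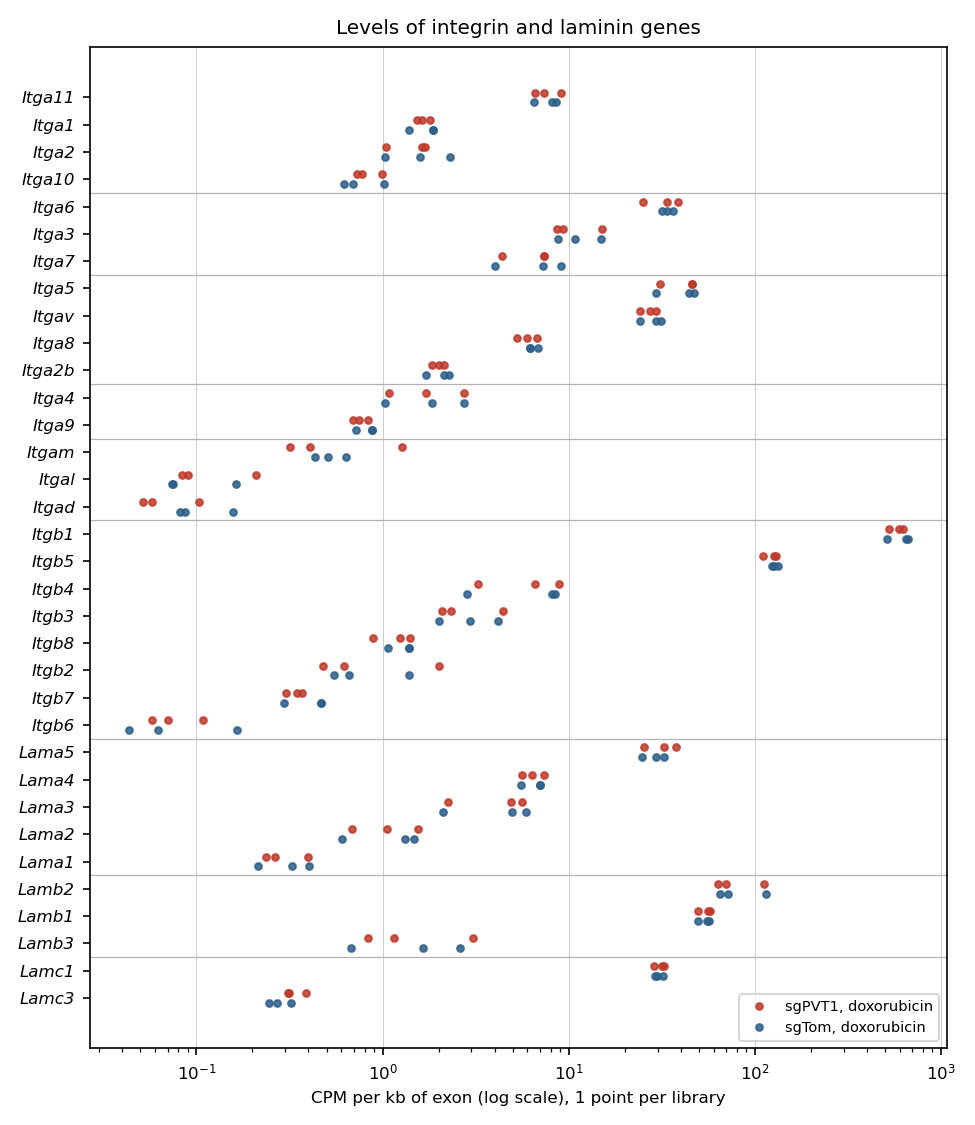
CPM per kilobase of exon on a log axis for 34 of the genes, 1 point per library, sgPVT1 in red above sgTom in blue, with lines between classes by role. Itgb1 lies highest, with Itgb5 next, and the red and blue points overlap for every gene drawn.

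The comparison of guides asked whether targeting the p53 site of Pvt1 went with other integrin or laminin levels after doxorubicin. No integrin or laminin gene passed the test over all genes. Fitted differences were small on the log2(CPM + 0.5) scale: 25 of the 34 tested genes had a log2 fold change within 0.1 of 0 (79% of all genes tested). All lay between −0.17 (Itgb7) and 0.22 (Lamc3). Fewer members were higher than lower, 12 against 22, where 49.7% of all genes were higher, with a median of −0.02 against 0.00 over all genes. An edgeR fit on recovered reads gave larger values for some low members, among them Itgam (0.34), Itgal (0.29), Lamc3 (0.27) and Itgb7 (−0.27). In bulk RNA, fewer cells of a type and less RNA per cell cannot be told apart.

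By role, integrin α subunits had 4 genes higher and 11 lower (median −0.03), β subunits 1 higher and 7 lower (median −0.06), and laminin chains 7 higher and 4 lower (median 0.01). These splits were not the same from pair to pair. The median log2 difference of the 34 genes was 0.09 in replicate pair 1, −0.13 in pair 2 and −0.01 in pair 3. The number higher ranged from 9 to 23 when 1 library was left out, reaching 22 without sgPVT1 replicate 1 and 23 without sgTom replicate 3, so no direction of the family is given here.

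In limma (14440 genes, Benjamini-Hochberg, threshold 0.05) 0 members and 0 genes in all (0%) passed, and at an unadjusted p under 0.05 there were 0 members and 50 genes (0.346%). The edgeR quasi-likelihood test on recovered reads also called 0 members and 0 genes, with 47 genes at an unadjusted p under 0.05 (0.325%). With replicate number as a block, limma called 5 genes (0.0346%), among them Pvt1 and Myc, and 0 members; at an unadjusted p under 0.05 it had 2 members, Lama5 and Itga8, and 965 genes (6.68%). The blocked edgeR test called 5 genes (0.0346%) and 0 members, with 1001 genes at an unadjusted p under 0.05 (6.93%). The authors' deposited table gives all 35 members a false discovery rate of 1, with a lowest p of 0.196 (Itgad).

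The blocked intervals bound how large a guide difference these libraries could hide, gene by gene and on the log2(CPM + 0.5) scale. They use limma's moderated variance, in which the 2 residual degrees of freedom of a gene are joined by information shared over all genes. The scale understates changes of low members such as Itgb6 and Itgb7, so for these the bound may be too narrow. For 33 of 34 members the 95% interval of the log2 fold change lay within 0.5 of 0 (96.1% of all genes), Itgam being the exception at −0.76 to 0.95. Without the block 12 of 34 did (73.6% of all genes). Itgb1 had a log2 fold change of −0.05 with a blocked interval of −0.14 to 0.03, and Itgav one of −0.07 with −0.14 to 0.01. The blocked intervals of Lama5 (0.05 to 0.21) and Itga8 (−0.21 to −0.0042) did not include 0, before any adjustment over genes.

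**Figure D2:**
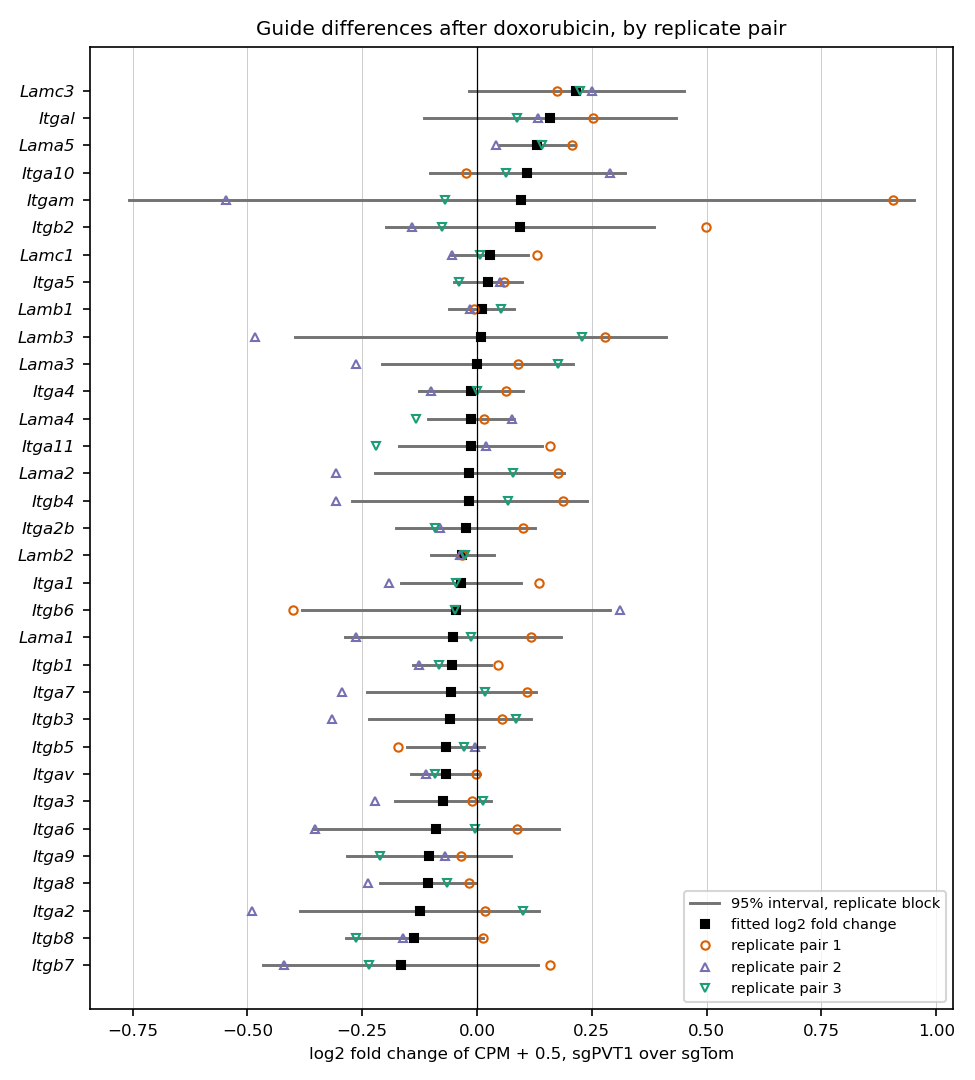
Log2 fold change of CPM + 0.5, sgPVT1 over sgTom, for 33 of the tested genes, with the fitted value as a square, the blocked 95% interval as a line and each replicate pair as an open symbol. Most squares lie within 0.1 of 0, and symbols of the 3 pairs fall on both sides of 0 for most genes.

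Lama5 (chromosome 2, 180176373 to 180225859, minus strand), the α chain of most adult basement membranes, had 427, 290 and 372 CPM in sgPVT1 libraries, against 370, 282 and 337 CPM in sgTom libraries. The sgPVT1 library was the higher of each pair, but the groups overlapped, with sgPVT1 replicate 2 below sgTom replicates 1 and 3. Its log2 fold change was 0.13 (SE 0.166, limma adjusted p = 1.0), with 0.21, 0.04 and 0.14 in pairs 1 to 3. In the blocked limma fit the SE was 0.0370 and the adjusted p = 0.586, and the blocked test without replicate 2 was the 1 alternative that passed (limma adjusted p = 0.00969).

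Lamc3, the γ chain known from brain, retina and other sites outside classical basement membranes, was low, with 1.92, 1.88 and 2.36 CPM in sgPVT1 libraries, against 1.64, 1.501 and 1.95 CPM in sgTom libraries. It was higher in 3 of 3 pairs, and the highest sgTom library lay above the lowest sgPVT1 library (log2 fold change 0.22, SE 0.140, limma adjusted p = 1.0, and 0.742 with the block). Itga10, a collagen receptor of cartilage, had 5.17, 4.03 and 3.79 CPM in sgPVT1 libraries, against 5.26, 3.21 and 3.61 CPM in sgTom libraries. It was higher in 2 of 3 pairs (log2 fold change 0.11, SE 0.202, limma adjusted p = 1.0).

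On the lower side, Itga8 had 49.8, 38.8 and 43.7 CPM in sgPVT1 libraries, against 50.4, 45.8 and 45.8 CPM in sgTom libraries. It was lower in 3 of 3 pairs, though sgPVT1 replicate 1 was above sgTom replicates 2 and 3 (log2 fold change −0.11, SE 0.101, limma adjusted p = 1.0, and 0.738 with the block). Itga9, whose window is printed above and which binds tenascin and VCAM1, had 5.36, 6.45 and 5.76 CPM in sgPVT1 libraries, against 5.51, 6.79 and 6.74 CPM in sgTom libraries (log2 fold change −0.10, SE 0.123, limma adjusted p = 1.0). Itgb7, a lymphocyte β subunit, had 0.967, 0.842 and 1.02 CPM in sgPVT1 libraries, against 0.814, 1.30 and 1.29 CPM in sgTom libraries (log2 fold change −0.17, SE 0.164, limma adjusted p = 1.0). Itgb7 was higher in pair 1 and lower in the other pairs, on 47 to 87 reads per library.

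Counted over pairs, Itgal, Lama5 and Lamc3 were higher in 3 of 3 (14.4% of all genes), and Itga8, Itga9, Itgav, Itgb5 and Lamb2 were lower in 3 of 3 (14.4% of all genes). No member had all libraries of one guide above or below those of the other, where 2.15% of all genes did so higher and 1.47% lower.

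The proteins that work with integrins and laminins showed no call either. Of 33 tested adaptor and signalling genes, 21 were higher and 12 lower (median 0.01), and 0 passed limma with or without the block. Zyx, which encodes the focal adhesion protein zyxin, had 330, 328 and 352 CPM in sgPVT1 libraries, against 303, 313 and 336 CPM in sgTom libraries (log2 fold change 0.08, limma adjusted p = 1.0). Tns1, encoding tensin 1, had a log2 fold change of −0.09 and Ptk2b, a relative of focal adhesion kinase, one of 0.08. Of 10 membrane partners 3 were higher and 7 lower (median −0.02), with Cd9 at −0.12, Cd151, the tetraspanin of laminin-binding integrins, at −0.06 and Bsg at −0.04.

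Of 17 tested integrin ligands 6 were higher and 11 lower (median −0.02), and 0 passed either fit. Edil3, a secreted ligand of αv integrins, had 44.5, 67.5 and 54.6 CPM in sgPVT1 libraries, against 56.1, 72.0 and 64.7 CPM in sgTom libraries. It was lower in each pair, and the groups overlapped (log2 fold change −0.22, SE 0.165, limma adjusted p = 1.0, and 0.44 with the block). Vcam1 had a log2 fold change of −0.15. Postn had one of 0.16, which became −0.075 in the blocked fit without replicate 1. Of 17 basement membrane partners and other laminin receptors 3 were higher and 14 lower (median −0.04), with 0 called. Ntn1, encoding netrin 1, had a log2 fold change of −0.13, Dag1, encoding dystroglycan, −0.09 and Col15a1 −0.18.

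Between replicate numbers these genes differed more. A test of replicate number beside guide called 28 of 34 members in limma (48.6% of all genes, 7022 of 14440). Of the 28, 19 had both replicate 1 libraries below the other 4, 6 had both above (Itga8, Itga10, Itgal, Itgb2, Itgb6 and Lamb2) and 3 had neither (Itga11, Itgb8 and Lama5). Among all 34 tested members, called or not, both replicate 1 libraries lay below the other 4 in 20 (25.3% of all genes tested) and above in 8 (25.7%). Replicate means were over 2-fold apart in 9 of the called members, Itga4, Itgal, Itgb2, Itgb3, Itgb4, Itgb6, Lama2, Lama3 and Lamb3, and 6.93% of all genes tested were called with means that far apart.

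Replicate number held 91.7% of the summed variance of the 34 members, guide 1.39% and the residual 6.94%, against 86.9%, 4.59% and 8.50% over all genes. The median ratio of the highest to the lowest replicate mean was 1.49 in members and 1.19 in all genes. The edgeR test also called 28 members (48.6% of all genes), and limma without trend called 22 members and 4328 of all 14440 genes. Without replicate 1, chosen after seeing the data, limma called 11 members and 3068 genes.

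**Figure D3:**
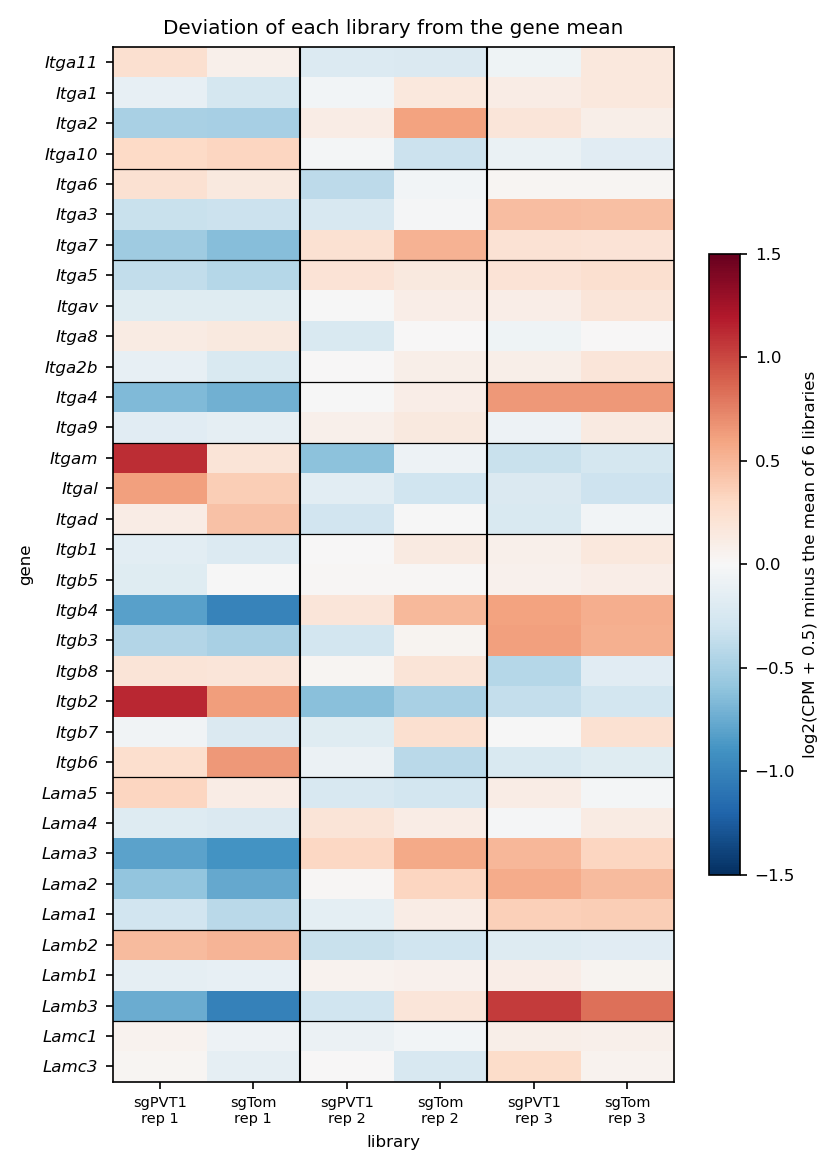
Log2(CPM + 0.5) of each library minus the mean of the 6, for 34 of the genes, in blue below and red above the mean, with libraries side by side by replicate number and sgPVT1 left of sgTom. Neighbouring columns of one replicate share colours, with blue for Lama3, Itgb4, Lamb3 and Itga4 and red for Itgb2, Itgam and Lamb2 in replicate 1.

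The members with the smallest p for replicate number were Lamb2, Itga4, Itga5 and Itga3. The Lamb2 values given above were higher in both replicate 1 libraries than in the other 4 (limma adjusted p = 4.13e-08). Itga4, a receptor subunit for VCAM1 and fibronectin, had 15.1, 24.1 and 38.2 CPM in sgPVT1 libraries, against 14.4, 25.8 and 38.2 CPM in sgTom libraries (limma adjusted p = 6.75e-08). Each replicate had its own level with both guides, the highest being 2.58 times the lowest. Itga4 shares 8.04% of its exon bases with Cerkl on the opposite strand, and no strand setting is given for the counting. Likewise Itga8, Itgav, Itgb4 and Lamc3 share 5.05% to 7.66% of their exon bases with a gene on the opposite strand. Itga5 was lowest in replicate 1 with both guides (limma adjusted p = 4.73e-07). Itga3 had 49.4, 53.1 and 86.3 CPM in sgPVT1 libraries, against 49.8, 62.0 and 85.6 CPM in sgTom libraries, highest in replicate 3 with both guides (limma adjusted p = 3.97e-06).

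Lama3 and Lamb3, laminin chains known from epithelium, and Itgb4, whose product pairs with α6 in epithelial hemidesmosomes, were low in replicate 1. These genes were grouped after their values were seen, and Itgb6, a β subunit known from epithelium, had 0.771, 0.501 and 0.412 CPM in sgPVT1 libraries, against 1.18, 0.307 and 0.444 CPM in sgTom libraries, with both replicate 1 libraries the highest (limma adjusted p = 0.0136). Lama3 had 24.1, 52.5 and 60.1 CPM in sgPVT1 libraries, against 22.6, 63.1 and 53.1 CPM in sgTom libraries (limma adjusted p = 2.19e-04). Lamb3 had 5.50, 7.63 and 20.3 CPM in sgPVT1 libraries, against 4.45, 10.9 and 17.2 CPM in sgTom libraries (limma adjusted p = 0.00221). Both replicate 1 libraries were lowest for both chains, and Lamb3, whose replicate means were 3.77-fold apart, was also highest in replicate 3.

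Itgb4 had 22.8, 46.0 and 62.0 CPM in sgPVT1 libraries, against 19.997, 57.0 and 59.1 CPM in sgTom libraries (limma adjusted p = 8.17e-04). Its partner Itga6 did not pass (limma adjusted p = 0.103), and its replicate 1 libraries were the highest. Without replicate 1, Lamb3 still passed, and Lama3 and Itgb4 did not. Epithelial markers were mixed: Epcam, Cdh1, Krt5 and Krt14 were under 1 CPM in every library, Krt19 was between 51.4 and 96.9 CPM, and Cldn4 was at 0.378, 2.17 and 2.53 CPM in sgPVT1 and 0.294, 2.80 and 2.59 CPM in sgTom libraries. The summed level of the 10 listed epithelial markers, mostly Krt19, was 101, 57.7 and 99.8 CPM in sgPVT1 and 91.6, 80.3 and 95.7 CPM in sgTom libraries. Of the 3 epithelial markers tested, 2 had both replicate 1 libraries below the other 4 (25.3% of all genes tested) and 0 had both above. The part of epithelial cells in these values was not tested.

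Itgb2, Itgal and Itgam, named here after their values were seen, were high in replicate 1. Itgb2, the β subunit common to leukocyte integrins, had 6.15, 1.47 and 1.88 CPM in sgPVT1 libraries, against 4.21, 1.67 and 2.01 CPM in sgTom libraries (limma adjusted p = 7.29e-05). Itgal, its partner in LFA-1, had 1.38, 0.591 and 0.550 CPM in sgPVT1 libraries, against 1.07, 0.495 and 0.488 CPM in sgTom libraries (limma adjusted p = 0.0023). Itgam, its partner in the complement receptor of macrophages, had 6.41, 1.59 and 2.05 CPM in sgPVT1 libraries, against 3.19, 2.56 and 2.17 CPM in sgTom libraries and did not pass (limma adjusted p = 0.152). All 3 were highest in the replicate 1 libraries. In GENCODE M21, Itgam shares 68.7% of its exon bases with Gm49368 on the same strand, so the Itgam counts are uncertain. Gm49368 is not among the listed genes, and whether the authors' annotation held it is not known here. Itgad, whose low values are given above, was also highest in both replicate 1 libraries. It did not pass the filter for testing, and without that filter limma called it for replicate number. Itga4 and Itgb7, which leukocytes also use, did not share this pattern: Itga4 was lowest in replicate 1, as given above, and Itgb7 did not pass (limma adjusted p = 0.44).

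All 15 listed macrophage markers had both replicate 1 libraries above the other 4 (25.7% of all genes tested). Their summed level was 431, 119 and 150 CPM in sgPVT1 libraries, against 271, 125 and 150 CPM in sgTom libraries, and Fermt3, the kindlin of blood cells, had 5.26, 1.25 and 1.66 CPM in sgPVT1 libraries, against 3.01, 0.802 and 1.80 CPM in sgTom libraries. The part of such cells in the leukocyte integrin values was not tested. Without replicate 1, none of Itgb2, Itgal and Itgam passed.

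**Figure D4:**
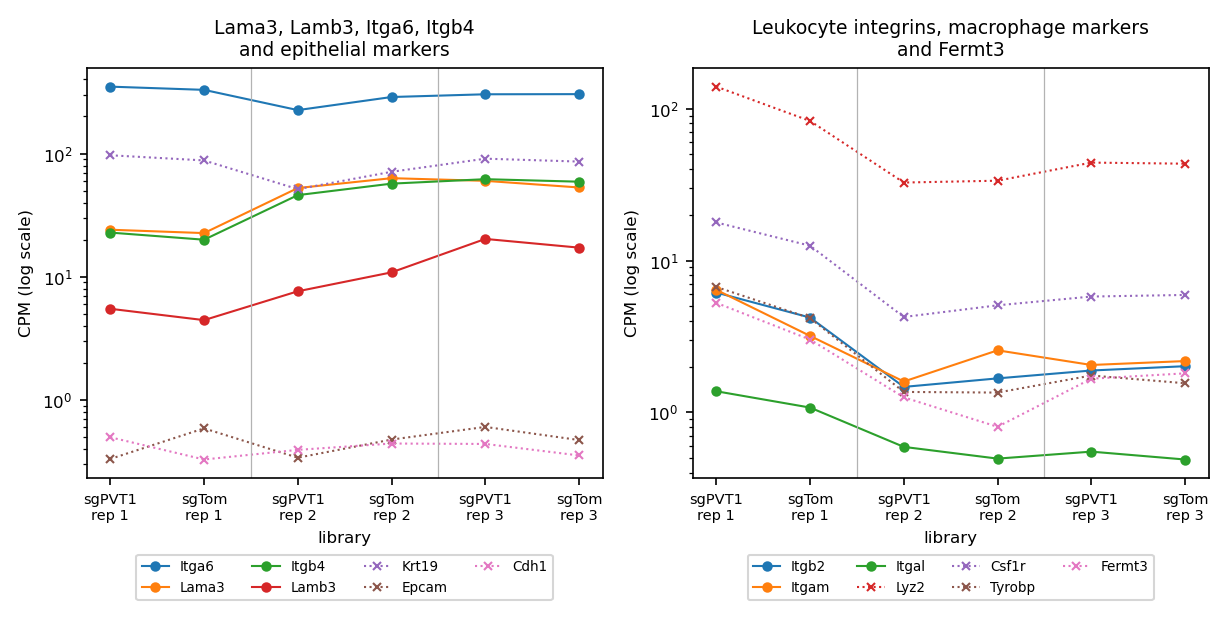
CPM per library on a log axis, grouped by replicate with sgPVT1 left of sgTom. The left panel holds Lama3, Lamb3, Itga6, Itgb4 and, of the 10 listed epithelial markers, Krt19, Epcam and Cdh1. The other listed epithelial markers, Cldn4 among them, are not drawn. The right panel holds leukocyte integrins, macrophage markers and Fermt3. Lines join the values of a gene, solid for members and dotted for others. Lama3, Lamb3 and Itgb4 are lowest in both replicate 1 libraries, and Itgb2, Itgal and Itgam are highest there with the macrophage markers.

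Members known from muscle and platelets also differed with the replicate. Itga7 had 35.3, 59.8 and 59.7 CPM in sgPVT1 libraries, against 32.7, 73.5 and 59.0 CPM in sgTom libraries (limma adjusted p = 5.04e-04), and Lama2, the muscle laminin α chain, had 11.2, 17.4 and 25.4 CPM in sgPVT1 libraries, against 9.83, 21.6 and 24.0 CPM in sgTom libraries (limma adjusted p = 1.19e-04). Both were lowest in replicate 1. The 4 listed skeletal muscle markers summed to 41.9, 53.5 and 42.3 CPM in sgPVT1 and 41.3, 58.9 and 41.6 CPM in sgTom libraries, lowest in replicate 1 with both guides by a small margin. Itga2b, the platelet subunit, differed less, with 10.003, 11.0 and 11.7 CPM in sgPVT1 libraries, against 9.30, 11.7 and 12.5 CPM in sgTom libraries (limma adjusted p = 0.0234). The 4 listed platelet markers summed to 7.78, 18.6 and 18.8 CPM in sgPVT1 and 6.67, 26.1 and 20.4 CPM in sgTom libraries. They were mixed: 1 had both replicate 1 libraries below the other 4 (25.3% of all genes tested) and 1 had both above (25.7%). Of the 4 markers, 1 passed the test of replicate number (48.6% of all genes tested). The part of other cell types in these differences was not tested.

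The remaining called members were spread over the roles. Itgb3, which pairs with αv, had 12.3, 13.8 and 26.1 CPM in sgPVT1 libraries, against 11.8, 17.3 and 24.6 CPM in sgTom libraries, highest in replicate 3 with both guides (limma adjusted p = 4.15e-05). Itgb8, an αv partner that binds latent TGF-β, had 15.4, 13.7 and 9.82 CPM in sgPVT1 libraries, against 15.3, 15.4 and 11.9 CPM in sgTom libraries, lowest in replicate 3 with both guides (limma adjusted p = 0.00101). Itgb1 and Itgb5 were called with small ratios between the highest and lowest replicate mean, 1.23 and 1.13. The 6 members without a call were Itga6, Itga9, Itgam, Itgb7, Lamc1 and Lamc3. Of the partner lists, 26 of 33 adaptor and signalling genes, 9 of 10 membrane partners, 14 of 17 ligands and 16 of 17 basement membrane partners passed the same test. It called 48.6% of all genes tested.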

How the data were processed

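Libraries of polyadenylated RNA from the 6 doxorubicin-treated samples were made with a strand-specific kit, per the labels' protocols. The submitters' processing notes name mm10 and, without roles, filters or a strand setting, HTSeq 0.6.1, StringTie 1.2.4, TopHat2 2.0.14 and edgeR 3.22.3. The deposited CPM per gene come from edgeR, per the file headers. A log2 fold change, a p-value and a false discovery rate by the authors for sgPVT1 against sgTom stand beside them in the deposited table. Its 6 pseudo-count columns were not used. Of 16427 entries, 2 named no gene and were removed; they held 0.543% to 1.58% (ambiguous) and 8.06% to 8.94% (outside genes) of a library's reads and stay in the authors' CPM divisor. Dividing CPM by the worth of 1 read gave whole reads within 0.01 for 100% of values. A tested member rested on 18 to 185403 reads per library.

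Members and lists were chosen with earlier results of these data known. The main test was limma 3.58.1 in R 4.3.3 (trend, robust) on log2(CPM + 0.5). It covered 14440 genes (0.5 CPM or more in 3 or more libraries), with Benjamini-Hochberg adjustment over all of them, a threshold of 0.05 and 4 residual degrees of freedom. Fold changes are on the log2(CPM + 0.5) scale, sgPVT1 over sgTom, and understate changes of low genes. Deviations from group means correlated at 0.869, 0.739 and 0.817 across genes for equal replicate numbers and at most at 0.203 otherwise, so the numbers pair the libraries. A fit blocked by number, which leaves 2 residual degrees of freedom, stands beside the main one. Replicate differences were tested by limma's moderated F in a model of guide and replicate number. On recovered reads, quasi-likelihood tests of edgeR 4.0.16 called 0 genes for the guide without the block and 5 with it.

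Named with values were the 2 members of highest CPM per role, 3 per direction with the smallest p, 4 with the smallest p for replicate number and 3 genes per partner list; epithelial, leukocyte, muscle and other members were added after their values were seen. The values of 1 member, which stays in all counts, are not reported here. The tests were checked on simulated data. Alternatives were other pseudocounts, filters, scalings, limma without trend, edgeR, the block, and libraries or pairs left out.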

Additional observations from a re-analysis of the deposited data

How the results depend on the processing

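No integrin or laminin gene was called for the guide under any alternative but 1: with the replicate block and without replicate 2, limma called Lama5, so that 0 to 1 members were called when a pair was left out. Over all genes the guide count was 0 without the block and 5 with the replicate block in limma and also 5 with the block in edgeR; with the block it was 8 to 160 when a pair was left out, 160 of them without replicate 2. The number of members higher, 12 of 34, was 7 of 26 at a mean of at least 5 CPM, 9 to 23 without 1 library and, in the block, 7 to 23 without a pair; the median log2 fold change, −0.02, ranged from −0.16 (without sgTom replicate 1) to 0.0437 (without sgTom replicate 3). Replicate differences numbered 4328 genes in limma without trend and, in alternatives added after seeing the data, 3068 to 8051 genes and 11 to 30 members without a pair or library; the lowest counts were without replicate 1. Of 640 comparisons of 34 named genes, 58 changed sign, over 20 genes, and 3 passed, all in the block without replicate 2 (Lama5, Edil3 and Vcam1). Itga8, Itga9, Itgb7, Lama5 and Lamc3 were the 5 of 22 named members without a sign change. All 5 were among those named for a small p in the main fit to the same libraries, so their steady sign is no separate support. Among the 34 named genes, the block changed no other call for the guide. The causes of these shifts were not tested. Reads limit Itgad, Itgb6, Itgb7 and Itgal, the lowest members.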
